A study of Bos taurus with 15 samples.

Results

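The mitotic cell division and replication genes described here are 35 genes whose products copy the genome, drive entry into mitosis and separate the chromosomes. They were chosen by name, and their probes were found through the gene names, gene numbers, accessions and descriptions of the array. All 35 had a probe, 39 probes in all, among 15065 named genes on 21475 probes, and all 35 were among the 13443 genes tested. RNA came from testis of 15 cattle, taken at the slaughterhouse and measured on 1 single-colour Agilent array per animal. The 7 control animals had no treatment, and the 8 treated animals took prednisolone, a synthetic glucocorticoid, orally over 35 days in a daily amount of 30 mg per animal. Breed and age are not given in the sources used here, and the series' text calls the animals cows although the labelled tissue is testis. A level below is the log2 processed signal of a probe minus the 75th percentile of its array, so that a step of 1 is a doubling, and levels of different genes cannot be ranked because each probe binds with its own strength.

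As background, a cell copies its DNA once per cycle, in S phase, and divides it in mitosis. D-type and E-type cyclins with their kinases open S phase, the MCM helicase unwinds DNA at the forks, and cyclin B with CDK1 starts mitosis. In the testis, spermatogonia divide by mitosis, spermatocytes then replicate once and divide by meiosis, and much of the same machinery serves both kinds of division. A bulk tissue sample mixes these cells with Sertoli, Leydig, peritubular and other cells, so fewer dividing cells and less RNA per dividing cell cannot be told apart.

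The tissue label was checked against markers that were well above background on all 14 arrays other than that of prednisolone 30. These were 11 of 13 measured spermatogonial markers, 15 of 15 meiotic, 21 of 21 spermatid, 14 of 15 Sertoli cell and 8 of 8 Leydig cell markers. The lists held 17, 24, 25, 16 and 10 markers in that order. A measured marker had a probe well above background on at least 7 arrays, and the others had no such probe. The filter therefore set part of these shares in advance. A pair of libraries stood apart from the rest. The array of prednisolone 30 had 36.5% of its probes well above background, against 82.2% to 89.9% on the others, and its correlation with the others over all probes was at most 0.736. The 75th percentile subtracted was a signal of 49.8 on that array, against 1220 to 2780 on the others, so an equal signal gives a higher level there. The mean over epididymal markers was 4.56 there against -0.60 to 0.30 in the 13 animals other than prednisolone 30 and control 17. Of the 14 listed, 3 were measured, and 1 of these 3 was well above background on that array. The part of these marker levels in the values of the array was not tested. Of the 35 cell division genes, 23 were well above background on that array, against 32 on all 14 others. CCND3, CCNE1, CCNA2, MCM3, MCM6, PCNA, CDK1, MKI67, KIF11, CENPA, AURKB and BUB1B were not, so their values on that array only bound the level. In the authors' deposited table the value for this animal lay within 0.5 log2 of the median of the other treated animals for 34 of the 35 genes, and in the scanner file for 10. The scanner file and the deposited column of this animal therefore hold different measurements, and which one belongs to the animal was not settled.

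Control 17 was the other library that stood apart. It was the lowest of the 7 controls for 25 of the 35 genes, or 71.4%, against 34.1% of all genes tested. It was the highest control for CCND1 at 0.94, CCND3 at 1.22 and MCM3 at -6.02. The mean over spermatid markers was -0.73 in control 17, against -0.24 to 0.39 in the other 13 animals, and the mean over meiotic markers was -0.41 against -0.30 to 0.21. Markers of peritubular and smooth muscle cells averaged 1.27 against -0.49 to 0.43, and fibroblast and matrix markers 1.90 against -0.61 to 0.31. Of these, 9 of 10 smooth muscle and 8 of 10 matrix markers were above all 13 of those animals. The part of these marker levels in the low cell division values of control 17 was not tested, and results are given with and without both animals.

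**Figure D1:**
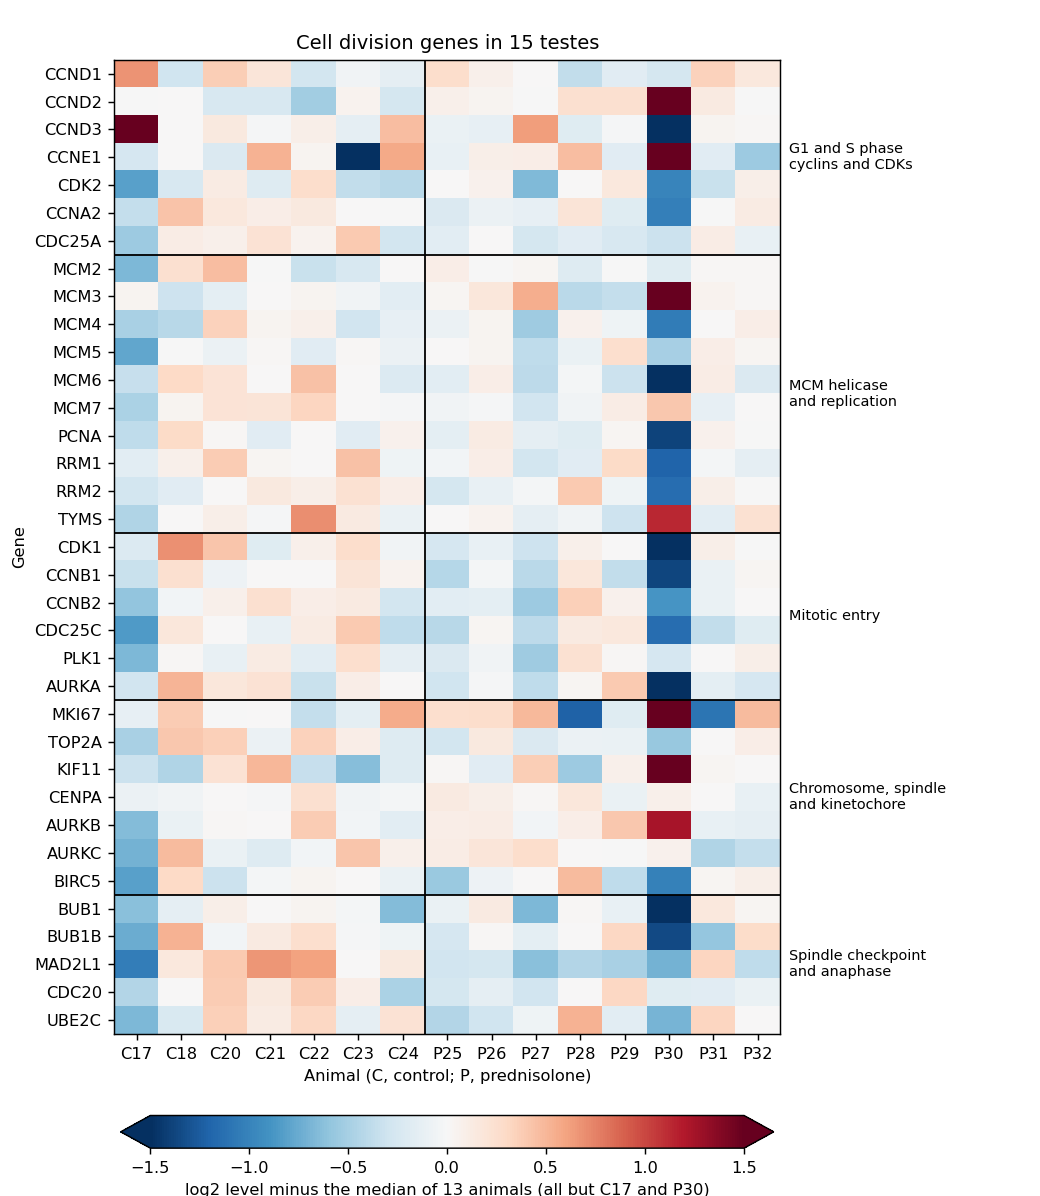
Log2 level of the 35 cell division genes (rows, by role) in 15 testes (columns, C for control and P for prednisolone), each as its distance from the gene's median over the 13 animals other than C17 and P30. C17 is the lowest control for 25 genes (71.4%, against 34.1% of all genes). P30 is the lowest treated animal for 21 (60.0%, against 43.3% of all genes). The other 13 columns are mostly paler, with CCNE1 in C23 and MKI67 in P28 and P31 as dark exceptions, and no gene separates control from treated columns.

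None of the 35 genes passed the test between prednisolone and control testis. With limma and Benjamini-Hochberg adjustment over all tested probes, 0 of the 35 had an adjusted p under 0.05, against a background of 0% of all genes, and no adjusted p was below 0.883. The count at an unadjusted p under 0.05 was also 0 of 35, against 2.43% of all genes. The treated mean was above the control mean for 12 genes and below it for 23, and the median difference was -0.07 log2 for the 35 genes and 0.01 for all genes. This split moved with the processing, to 7 above and 28 below with quantile normalization or median scaling, and to 17 above and 18 below, with a median of -0.01, with scan day as a block. The groups overlapped for all 35 genes, with and without control 17 and prednisolone 30. The share over all genes is not given here, so this count does not set the 35 genes apart from others.

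Leaving out animals narrowed the intervals without bringing a gene past the threshold. Without prednisolone 30 again 0 of 35 had a limma adjusted p under 0.05 (background 0%), and CCND2 had an unadjusted p under 0.05, or 1 of 35 against 4.16% of all genes. Without both control 17 and prednisolone 30 the adjusted count stayed at 0 (background 0%), and CCND2 and MAD2L1 had an unadjusted p under 0.05, or 2 of 35 against 4.95% of all genes. The authors' deposited table, whose column for prednisolone 30 does not follow that animal's scanner file, was tested with limma in the same way. The adjusted count there was 0 (background 0%) and the same 2 genes had an unadjusted p under 0.05, against 5.44% of all genes. Within scan day 1 and without both animals, which left controls 18 and 23 and prednisolone 25, 26, 29, 31 and 32, the limma adjusted count was 0 (background 0%) and 6 of the 35 genes had an unadjusted p under 0.05, against 7.97% of all genes. These were KIF11 and MCM4 above the control mean and CDK1, CCNB1, CDC25C and AURKC below it, with no limma adjusted p among the 35 below 0.457, and they did not include CCND2 or MAD2L1. That fit was chosen after seeing the data. The 95% interval of the difference included 0 for all 35 genes on 15 arrays, and its half-width ran from 0.23 for CENPA to 0.96 for MKI67. Without both animals the interval lay inside 1 log2 either way for all 35 genes and inside 0.5 log2 for 26. A doubling of the probe level lay outside every interval there, while a smaller difference did not for every gene. On some of those arrays the probes of MKI67, KIF11 and CCNE1 were not well above background, so their intervals describe signal and not RNA. Each interval is of 1 probe per gene, and a second AURKC probe differed by 1.13 on all 15 arrays.

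**Figure D2:**
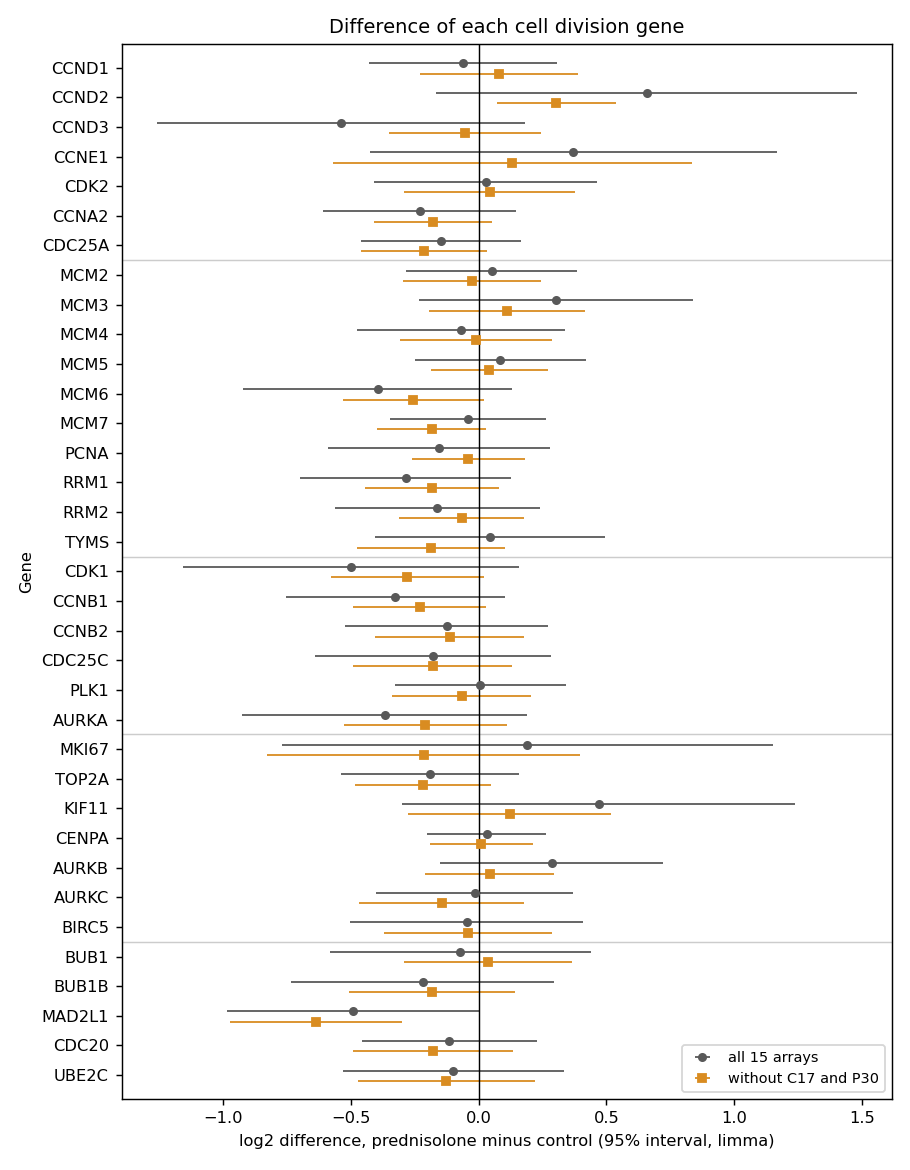
Log2 difference of each cell division gene, prednisolone minus control, with its 95% interval from limma, on all 15 arrays (grey circles) and without C17 and P30 (orange squares). All 35 grey intervals include 0, and 33 of the 35 orange ones do; those of CCND2 and MAD2L1 do not.

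The G1 and S phase regulators numbered 7, of which 3 were above and 4 below the control mean, with 0 past the threshold. CCND2, which encodes cyclin D2, a partner of CDK4 and CDK6 with a known place in spermatogonial differentiation, had the largest difference of the 35 genes. In controls 17, 18, 20, 21, 22, 23 and 24 its level was -3.18, -3.18, -3.42, -3.42, -3.70, -3.12 and -3.44. In prednisolone 25 to 32 it was -3.10, -3.13, -3.18, -2.94, -2.94, -0.02, -3.04 and -3.18. All 8 treated values lay above the control mean of -3.35, but the value of prednisolone 30 stood 3.09 log2 units above the median of the other treated animals, and the lower treated values overlapped those of controls 17, 18 and 23. The difference was 0.66 (95% interval -0.17 to 1.48, limma adjusted p = 0.883) on all arrays, 0.30 without both animals (0.07 to 0.54, adjusted p = 0.931) and 0.26 in the deposited table (adjusted p = 0.846). Within scan day 1, which held both groups, and without both animals it was 0.07.

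CCND3, which encodes cyclin D3, was ordinary in all but the 2 animals that stood apart. Its level was 1.22 in control 17 and -0.65, -0.51, -0.67, -0.56, -0.78 and -0.19 in controls 18, 20, 21, 22, 23 and 24. In prednisolone 25 to 32 it was -0.75, -0.78, -0.03, -0.84, -0.67, -2.46, -0.61 and -0.63. Control 17 was the highest and prednisolone 30, where the probe was not well above background, the lowest of all 15. The difference was -0.54 on all arrays (limma adjusted p = 0.883) and -0.05 without both animals (95% interval -0.35 to 0.24).

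CCND1, the cyclin D1 gene, had a control median of 0.22 (range -0.04 to 0.94) and a treated median of 0.30 (-0.11 to 0.61), a difference of -0.06 that was 0.08 without both animals. CCNE1 encodes cyclin E1, which activates CDK2 at the start of S phase. Its level was -6.26, -6.00, -6.22, -5.48, -5.96, -7.99 and -5.44 in controls 17, 18, 20, 21, 22, 23 and 24, and -6.11, -5.92, -5.90, -5.53, -6.17, -4.23, -6.17 and -6.55 in prednisolone 25 to 32. The lowest value, in control 23, and the highest, in prednisolone 30, were both not well above background, and the others spanned a common range in both groups. The difference of CCNE1 was 0.37 on all arrays and 0.13 without both animals.

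CDK2, the kinase of S phase, had mean levels of 1.85 ± 0.36 (SD, n = 7) in control and 1.87 ± 0.42 (SD, n = 8) in treated testis. A second CDK2 probe gave a difference of -0.07 against 0.03 for the first, and the 2 probes followed each other with a Pearson r of 0.82 over 13 arrays. CCNA2, which encodes the cyclin A2 of S phase and early mitosis, differed by -0.23 on all arrays and -0.18 without both animals. CDC25A, a phosphatase that switches on CDK2, had 7 of 8 treated values below the control mean, with a difference of -0.15 that was -0.21 without both animals. The intervals of all 3 included 0.

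The 10 replication genes had 4 members above and 6 below the control mean. All 6 subunits of the MCM2 to MCM7 helicase were measured. MCM2 differed by 0.05 (95% interval -0.28 to 0.38), MCM4 by -0.07 (-0.48 to 0.34), MCM5 by 0.08 (-0.25 to 0.42) and MCM7 by -0.04 (-0.35 to 0.26). MCM5 was among the steadiest of the 35 genes, with an SD of 0.15 over the 13 animals other than control 17 and prednisolone 30. In control 17 it was 2.26, against 2.86 to 3.06 in the other controls, and MCM7 in the same animal was 1.64 against 2.09 to 2.43.

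MCM6 had the largest difference of the helicase subunits. Its control levels ran from -1.48 in control 17 through a median of -1.13 to -0.69, and its treated levels from -2.92 in prednisolone 30 through a median of -1.32 to -1.02. The groups overlapped, with 6 of 8 treated values below the control mean of -1.07. The difference was -0.40 (95% interval -0.92 to 0.13, limma adjusted p = 0.883), -0.25 without both animals and -0.13 in the deposited table. MCM3 went the other way by 0.30, of which 0.11 was left without both animals, and its level on the array of prednisolone 30 was not well above background.

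PCNA, the sliding clamp of the DNA polymerases, had a control median of -2.02 (range -2.40 to -1.74) and a treated median of -2.10 (-3.41 to -1.90). The difference was -0.15 on all arrays and -0.04 without both animals. RRM1 and RRM2 encode the subunits of ribonucleotide reductase, which makes deoxynucleotides. RRM1 differed by -0.28 (95% interval -0.70 to 0.13), with 7 of 8 treated values below the control mean, and RRM2 by -0.16 (-0.56 to 0.24). TYMS, the thymidylate synthase gene, differed by 0.05. Its difference was -0.10 without prednisolone 30, which held the highest value of all at 4.03. It was -0.04 without control 17, the lowest control at 2.44, and -0.19 without both animals.

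The 6 genes of mitotic entry had 5 members below the control mean and 1, PLK1, 0.01 above it. Without control 17 and prednisolone 30 all 6 were below it, with differences from -0.28 to -0.07. None had an unadjusted limma p under 0.05 in either fit, while 3 did within scan day 1 without both animals, against 7.97% of all genes. In that fit all 6 were again below the control mean. The 3 were CDK1 (-0.53, limma unadjusted p = 0.012, adjusted p = 0.496), CCNB1 (-0.39, 0.0484, adjusted p = 0.57) and CDC25C (-0.44, 0.0499, adjusted p = 0.573), read against controls 18 and 23. These 2 controls had the highest means over the 6 genes of all animals, 0.32 and 0.28. The size of the differences in that fit therefore depends on which controls were left. CDK1 encodes the kinase that drives cells into mitosis and into the meiotic divisions. In controls 17, 18, 20, 21, 22, 23 and 24 its level was -0.69, 0.21, -0.06, -0.67, -0.41, -0.22 and -0.53. In prednisolone 25 to 32 it was -0.74, -0.60, -0.80, -0.41, -0.48, -2.80, -0.39 and -0.49. All 8 treated values lay below the control mean of -0.34, 5 of them within the range of the controls and those of prednisolone 25 and 27 just below it, and prednisolone 30 was far below. The difference was -0.50 (95% interval -1.16 to 0.16, limma adjusted p = 0.883), -0.28 without both animals (adjusted p = 0.931) and -0.19 in the deposited table.

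CCNB1 encodes cyclin B1, the partner of CDK1. Its level was 0.70, 1.27, 0.96, 1.04, 1.04, 1.23 and 1.09 in controls 17, 18, 20, 21, 22, 23 and 24, and 0.61, 1.01, 0.63, 1.21, 0.67, -0.34, 0.94 and 1.06 in prednisolone 25 to 32. Control 17 and prednisolone 25, 27 and 29 formed the low end together, with prednisolone 30 alone below them, and the other 10 animals overlapped. The difference was -0.33 (95% interval -0.75 to 0.10, limma adjusted p = 0.883), -0.23 without both animals and -0.15 in the deposited table. CCNB2, the cyclin B2 gene, differed by -0.12 (-0.52 to 0.27).

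CDC25C, the phosphatase that activates CDK1, differed by -0.18 on all arrays and by the same amount without both animals. PLK1, a kinase of mitotic entry and spindle assembly, had mean levels of 4.55 ± 0.30 (SD, n = 7) in control and 4.55 ± 0.24 (SD, n = 8) in treated testis, with a difference of 0.01 (95% interval -0.33 to 0.34). AURKA, the kinase of the spindle poles, differed by -0.37, which was -0.21 without both animals. The spots of its probe also disagreed most within this role, as the SD of a mean of its 2 spots was 0.32 and the SD between 13 animals 0.28.

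**Figure D3:**
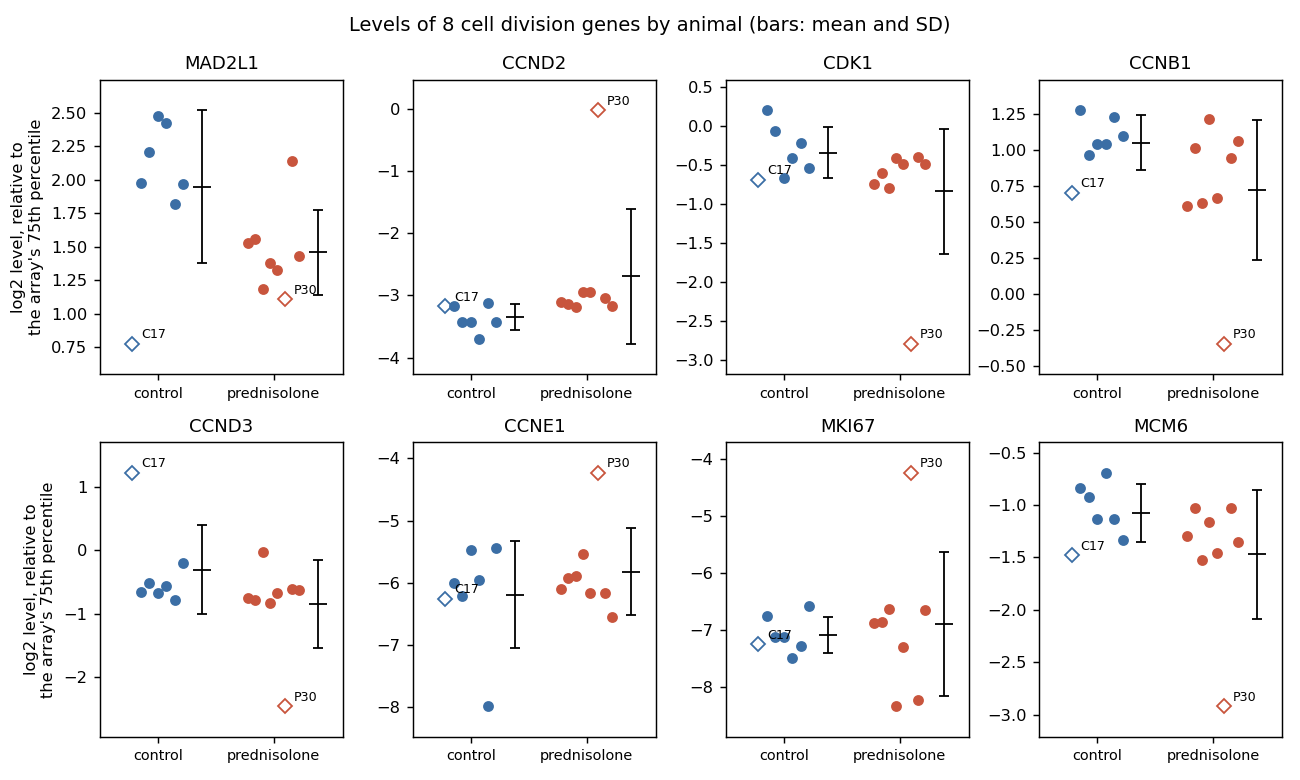
Log2 levels above or below the array's 75th percentile for 8 cell division genes in 7 control and 8 prednisolone testes; points are animals, open diamonds are C17 and P30, and bars give the group mean and SD. In MAD2L1 the treated animals other than P31 lie between 1.11 and 1.56 and the controls other than C17 between 1.81 and 2.47. P30 is the highest or the lowest treated animal in all 8 panels. Over all genes it is the lowest treated animal for 43.3% and the highest for 38.9%.

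Of the 7 genes of chromosomes, spindle and kinetochore, 4 were above and 3 below the control mean. MKI67 encodes Ki-67, the protein that coats mitotic chromosomes and marks cycling cells. Its level was -7.25, -6.75, -7.13, -7.13, -7.48, -7.27 and -6.57 in controls 17, 18, 20, 21, 22, 23 and 24, and -6.87, -6.87, -6.64, -8.34, -7.30, -4.25, -8.23 and -6.65 in prednisolone 25 to 32. Only 4 of 7 control and 5 of 8 treated arrays, not including prednisolone 30, had this probe well above background. Its spread between 13 animals, an SD of 0.57, was no larger than the SD of 0.59 of a mean of its 2 spots. Variation of MKI67 between animals was therefore not resolved from spot error. Its difference was 0.19 (95% interval -0.77 to 1.15) on all arrays and -0.21 (-0.83 to 0.40) without both animals.

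TOP2A, the topoisomerase that untangles replicated DNA, had closer spots, with an SD of 0.23 between 13 animals against 0.07 for the mean of 2 spots. It differed by -0.19 (95% interval -0.54 to 0.16) and by -0.22 without both animals. KIF11, a motor that pushes the spindle poles apart, cleared background on 5 of 7 control arrays and 6 of 8 treated ones, and differed by 0.47, of which 0.12 was left without both animals. CENPA, the histone variant that marks centromeres, was the least variable of the 35, with an SD of 0.11 between the 13 animals and a difference of 0.03 (-0.20 to 0.26).

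AURKB, AURKC and BIRC5 belong to the chromosomal passenger complex, which corrects faulty spindle attachments, and AURKC serves meiosis. AURKB differed by 0.29 on all arrays and 0.04 without both animals. AURKC differed by -0.02 (95% interval -0.40 to 0.37), and a second probe, named through its description alone, gave 1.13 with an unadjusted limma p of 0.217 and followed the first with an r of 0.09. BIRC5, the survivin gene, differed by -0.05, and by 0.01 on a second probe, with an r of 0.33 between the 2 probes. The probes of AURKC and BIRC5 therefore disagreed on which animals were high.

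All 5 genes of the spindle checkpoint and anaphase were below the control mean, with 0 past the threshold. Without control 17 and prednisolone 30, 4 were below and BUB1 was 0.04 above it, and with scan day as a block 3 were above and 2 below, with a median of 0.02. MAD2L1, read through a probe named by its description alone, encodes MAD2, which holds back anaphase until every kinetochore is attached. It had the smallest unadjusted p of the 35 genes. In controls 17, 18, 20, 21, 22, 23 and 24 its level was 0.77, 1.97, 2.21, 2.47, 2.42, 1.81 and 1.96. In prednisolone 25 to 32 it was 1.53, 1.56, 1.18, 1.38, 1.33, 1.11, 2.14 and 1.43. Control 17 was the lowest of all 15 animals, the other 6 controls lay above 7 of the 8 treated animals, and prednisolone 31 lay among the controls. The difference was -0.49 (95% interval -0.98 to 0.00, limma unadjusted p = 0.0506, adjusted p = 0.883).

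The difference of MAD2L1 varied with the animals and the blocks in the fit. It was -0.64 without both animals (95% interval -0.97 to -0.30, limma adjusted p = 0.931) and -0.50 in the deposited table (adjusted p = 0.846). With scan day as a block it was -0.01, with slide as a block -0.14, and within slide 1, which held control 17, control 18 and prednisolone 25 and 26, it was 0.17. The block and slide fits kept control 17, the lowest animal, so they do not separate scan day or slide from that animal. Within scan day 1 and without both animals the difference was -0.30, read against controls 18 and 23. Controls 20, 21, 22 and 24, scanned on days that held no treated animal, held the 3 highest control values, and for these 4 animals the scan day and the treatment cannot be told apart. The spread of MAD2L1 between the 13 animals, an SD of 0.43, was well above the SD of 0.09 of a mean of its 2 spots.

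BUB1 and BUB1B encode kinases of the same checkpoint. BUB1 had control levels of -0.20 to 0.54 with a median of 0.42 and treated levels of -1.08 to 0.61 with a median of 0.41, and differed by -0.07. BUB1B differed by -0.22 (95% interval -0.73 to 0.29), and control 17 at -3.08 and prednisolone 30 at -3.69 were its lowest values. CDC20, which switches on the anaphase-promoting complex, differed by -0.12, with 7 of 8 treated values below the control mean. UBE2C, the ubiquitin-conjugating enzyme of that complex, differed by -0.10, and its second probe was well above background on 0 arrays. The intervals of all 4 included 0.

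The rest of the replication and division machinery was read from lists of 10 further groups. Of the 165 genes of these lists that were tested, 62 were above and 103 below the control mean, 0 passed the threshold with limma, and the median difference was -0.05. With scan day as a block 81 were above and 84 below. E2F3 and CDKN2B, 2 of the 165, had an unadjusted limma p under 0.05, against the background of 2.43% of all genes. Without control 17 and prednisolone 30 this count was 12 of 165, 10 of them below the control mean, against 4.95% of all genes. In the deposited table it was 7, 6 of them below, against 5.44% of all genes. The adjusted count was 0 in both. E2F3, a transcription factor of S phase genes, was -2.88 ± 0.25 (SD, n = 7) in control and -2.26 ± 0.50 (SD, n = 8) in treated testis. Its difference of 0.62 was 0.45 without both animals and turned to -0.33 in the deposited table. CDKN2B, which encodes the CDK4 and CDK6 inhibitor p15, was -1.47 ± 0.32 (SD, n = 7) in control and -2.15 ± 0.71 (SD, n = 8) in treated testis, a difference of -0.68 that was -0.51 without both animals and -0.45 in the deposited table.

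The next smallest unadjusted p in each direction belonged to genes that did not reach 0.05. Above the control mean these were CENPT (0.33), a kinetochore protein, LIN52 (0.34), a subunit of the DREAM complex that represses cell cycle genes, and CDKN1A (0.25), the p21 inhibitor gene. Below it were E2F5 (-0.28), a repressive E2F, CDC27 (-0.50), a subunit of the anaphase-promoting complex, and ESCO2 (-0.35), which acetylates cohesin. Of the 27 kinetochore genes tested, 9 were above and 18 below the control mean, with a median of -0.06. Of the 7 meiotic counterparts tested, such as the genes of meiotic cohesin, 1 was above and 6 below, with a median of -0.09. With scan day as a block 13 kinetochore genes were above and 14 below, and 5 meiotic counterparts above and 2 below. Most of the remaining lists also had more genes below, while the E2F and RB list had 11 above and 7 below and replication licensing 9 and 9. Of all 13443 genes tested, 6978 were above.

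The spread between animals was set beside the disagreement of spots on the same array. Each animal had 1 array, so the spread between animals also holds labelling, hybridization, slide and scan day, and any difference between the groups. Over the 13 animals other than control 17 and prednisolone 30 the SD between animals was below 0.3 log2 for 31 of the 35 genes, with a median of 0.24. The SD of a mean of 2 spots, from that disagreement, had a median of 0.10, and for 18 genes the animals spread more than 2 times as far as that. UBE2C, MAD2L1, MCM5, CCNB2 and CDK1 had the largest ratios of these SDs, and AURKA, MCM4 and MKI67 the smallest, with an animal SD no larger than the spot error.

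Pairs of genes were compared over the 13 animals for the 32 genes that were well above background on all 14 arrays without prednisolone 30. Of the 496 pairs, 323 had a Pearson r above 0, and the median r was 0.14. It was 0.36 with control 17 included. After Benjamini-Hochberg adjustment over the 496 pairs, 0 had a permutation p under 0.05, by Pearson or by Spearman correlation. The values share the scaling of their array and, for some, the slide and scan day.

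The genes of mitotic entry were the most alike among themselves. Their 15 pairs had a median r of 0.56, and every one was positive, from 0.36 for CDK1 with CCNB2 to 0.83 for CCNB2 with PLK1. Pairs within the replication genes had a median r of 0.07, within the G1 and S phase genes -0.12, within chromosome, spindle and kinetochore genes 0.08 and within the spindle checkpoint genes 0.28. The difference between these medians was not tested. For CCNB2 with PLK1 the Spearman rho was 0.72, the permutation p of r was 0.0008 (adjusted 0.134), r was 0.56 without the 2 animals farthest from the median of CCNB2, and 0.86 within the 7 animals of scan day 1. MCM6 with TOP2A had an r of 0.82 (rho 0.78, permutation p of r 0.00075, adjusted 0.134), which was 0.76 without the 2 farthest animals and 0.72 within scan day 1. At the other end, CCND3 with BUB1 had an r of -0.83 but a rho of -0.17 (permutation p of r 0.00922, adjusted 0.223), and r was 0.22 without the 2 farthest animals, so that relation rested on those 2.

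**Figure D4:**
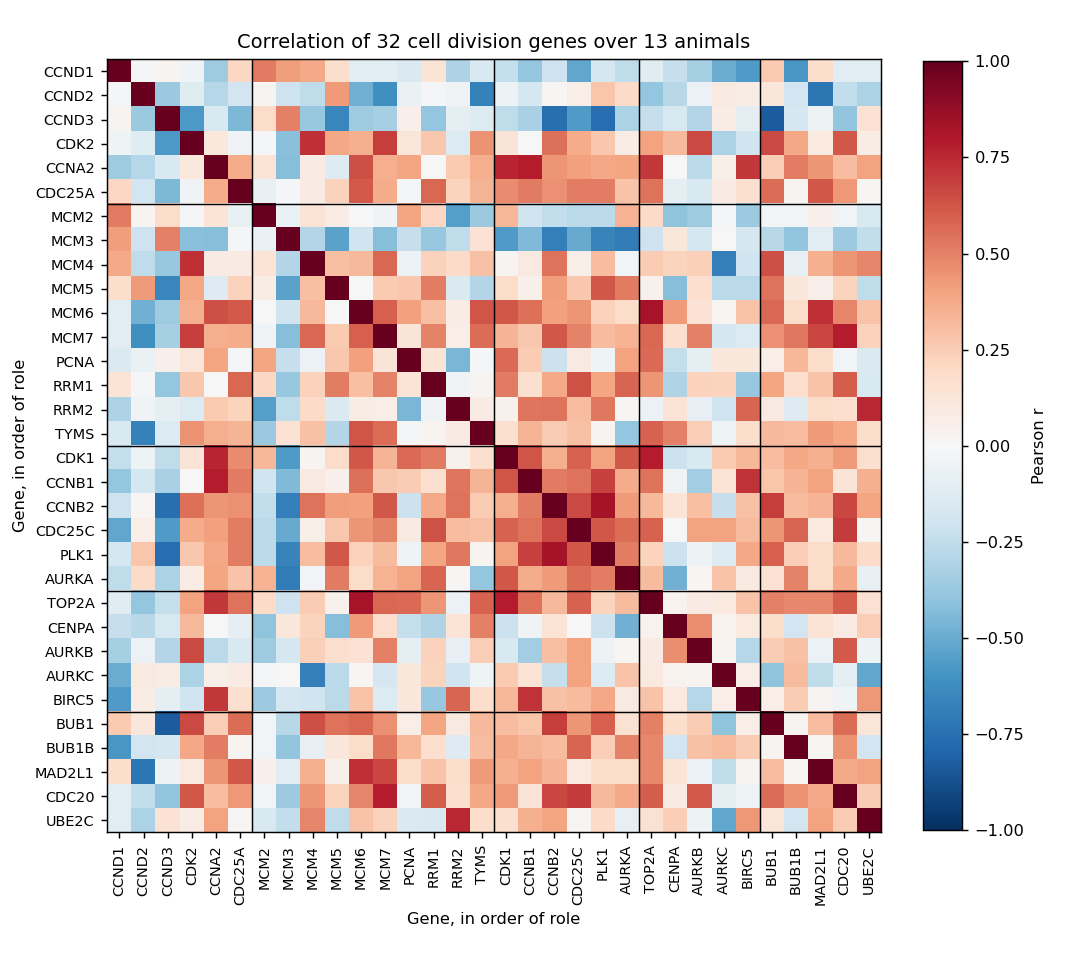
Pearson r over 13 animals (without C17 and P30) for each pair of 32 cell division genes, in order of role, with black lines between roles. The block of mitotic entry genes, from CDK1 to AURKA, is red throughout (0.36 to 0.83), whereas the other blocks on the diagonal hold both signs.

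The mean over the genes of each role was set beside the mean over markers of germ cells and Sertoli cells in the same 13 animals, in 20 relations chosen after seeing the data. The replication genes followed the meiotic markers with a Pearson r of 0.78 (Spearman rho 0.63, permutation p of r 0.002, adjusted over the 20 relations 0.0196; of rho 0.0239, adjusted 0.0956). For the genes of mitotic entry r with the meiotic markers was 0.74 (rho 0.65, permutation p of r 0.0039, adjusted 0.0196; of rho 0.0191, adjusted 0.0956). For the spindle checkpoint genes it was 0.74 (rho 0.63, permutation p of r 0.003, adjusted 0.0196; of rho 0.0237, adjusted 0.0956). Without the 2 animals farthest from the median of the meiotic markers r was 0.58, 0.47 and 0.53 in that order, and within the 7 animals of scan day 1 it was 0.44, 0.64 and 0.34. The adjusted Spearman values did not reach 0.05.

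The genes of mitotic entry also followed the spermatid markers (r = 0.72, rho 0.66, permutation p of r 0.0052, adjusted 0.0208; adjusted for rho 0.0956), with an r of 0.54 without the 2 farthest animals and 0.68 within scan day 1. They ran against the Sertoli cell markers (r = -0.79, rho -0.66, permutation p of r 0.0016, adjusted 0.0196; adjusted for rho 0.0956), with -0.52 and -0.67 in the same order. The spindle checkpoint genes ran against them as well (r = -0.66, rho -0.53, permutation p of r 0.0141, adjusted 0.0472; adjusted for rho 0.186), with -0.62 and -0.44. No role followed the spermatogonial markers with an adjusted permutation p under 0.05, and r there ran from -0.49 for mitotic entry to 0.55 for chromosome, spindle and kinetochore. The mean of the G1 and S phase genes had r between -0.41 and 0.29 with the 4 marker lists.

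**Figure D5:**
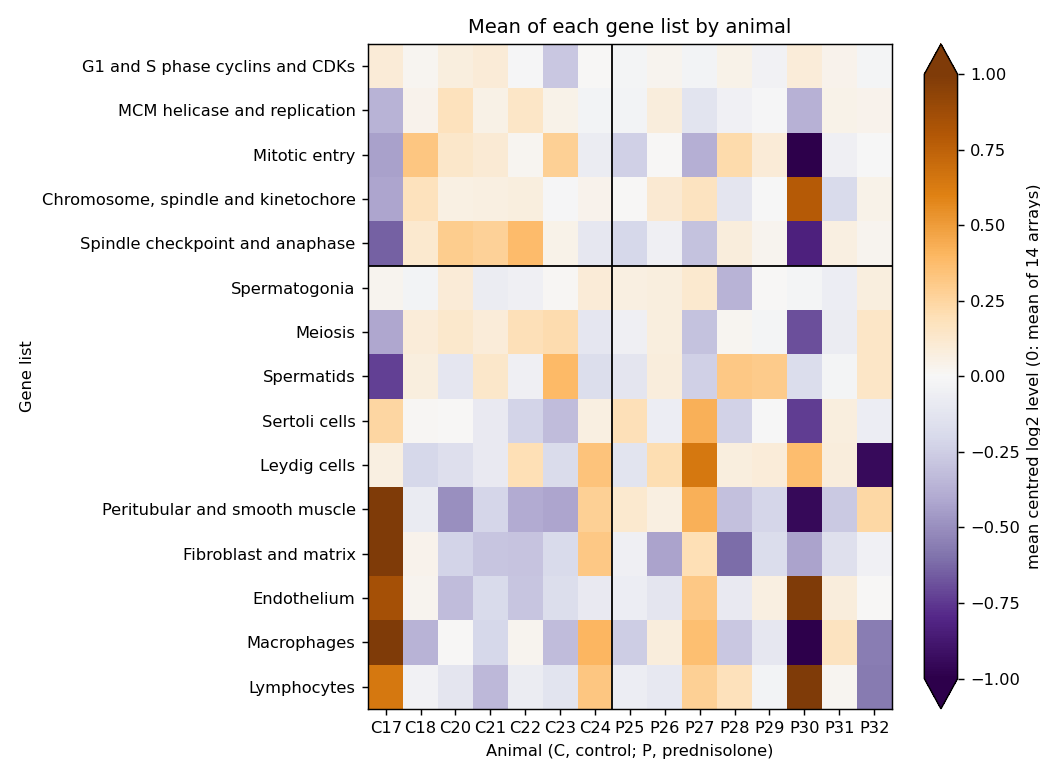
Mean centred log2 level of each role of the cell division genes (upper 5 rows) and of each marker list (lower 10 rows) by animal; 0 is the mean of the 14 arrays without P30. In C17 the checkpoint genes (-0.65), mitotic entry genes (-0.44), meiotic (-0.41) and spermatid markers (-0.73) are low and matrix markers (1.90) high; P27 has low mitotic entry genes (-0.38) and meiotic markers (-0.30).

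Genes outside the cell division lists were ranked by their likeness to the mean of the 18 mitotic genes, those of mitotic entry, chromosomes and checkpoint, over the 14 arrays without prednisolone 30. Among 13243 genes, PDE10A, a cyclic nucleotide phosphodiesterase, had the highest Pearson r at 0.95, which was 0.89 without control 17. The next were LOC515755 (r 0.93), TIMM23 (0.92), a mitochondrial import channel, TRIM37 (0.92), a ubiquitin ligase, KSR2 (0.91), a scaffold of the MAP kinase cascade, and FAM227B (0.91). Without control 17 these 5 values lay between 0.76 and 0.83. The mean of the 18 genes itself was -0.49 in control 17 and between -0.14 and 0.21 in the other 13 animals, and all 6 genes were lower in control 17 than the median of the others. The ranking chose these genes for their likeness, so their r values are a description with no test.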

How the data were processed

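Per the file headers, the deposited scanner files hold spot intensity from Feature Extraction 9.5.1.1, with flags for background and saturation. Per the series' design text the processed signal is background-subtracted and detrended, with no normalization across arrays. A second deposited file, the authors' table of intensity for the same 15 animals, holds columns at a common level, by a method not given in the sources used here, and its column for prednisolone 30 does not follow that animal's scanner file. Per the submitters' processing notes, R 2.11.1 was used.

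Control and outlier spots were left out, spots of a probe averaged, and the log2 75th percentile of an array subtracted from its values. A probe was tested when 7 or more arrays, counted over both groups together, flagged it well above background. This held for 18492 probes. Probes were named through the files and a bovine gene table of assembly ARS-UCD2.0, and the probe of highest mean stood for its gene. For CDC25A, MAD2L1, MCM4, MKI67 and TOP2A that probe was named through its description alone. No probe of the 35 genes was saturated. Prednisolone was compared with control by limma 3.58.1 (R 4.3.3), two-sided, with Benjamini-Hochberg adjustment over all tested probes and a threshold of 0.05. The fit was tested on simulated data with known changes in either direction. On all 15 arrays it recovered 5.8% of changes of 0.5 log2, 48.4% of changes of 1 and 88.4% of changes of 2. Without prednisolone 30 it recovered 20%, 80.8% and 96.2% in that order. Correlations used 100000 permutations, two-sided. Alternatives covered scaling, normexp background (offset 50), the deposited table, the filter, slide and scan day as blocks, array weights, several probes per gene, and animals left out.

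The 35 genes and all lists were chosen with earlier results of these data known. The named genes were the 35, up to 4 per direction of the other cell division genes by smallest unadjusted p, and the 6 genes most alike to the mitotic mean; every animal's value is given for the 4 members with the smallest p and the 4 with the largest SD. The number of arrays limits the precision.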

Additional observations from a re-analysis of the deposited data

Results flagged for a closer look

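In 24 of 70 groups of values, 1 animal lay far from the rest of its group by Dixon's ratio, which chance alone does in about 1 group in 20, or 3.5 here. Prednisolone 30 held 17 of these, control 17 held 4 and other animals 3.

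Prednisolone 30 lay far above the other treated animals in CCND2 (-0.016), TYMS (4.03) and, where the probe was not well above background on its array, in CCNE1 (-4.23), MCM3 (-4.34), MKI67 (-4.25), KIF11 (-4.16) and AURKB (-0.94). It lay far below them in CCNB1 (-0.34), CDC25C (-1.54), AURKA (0.065), RRM1 (0.67) and RRM2 (-2.99). It also lay far below them, not well above background, in CCND3 (-2.46), CCNA2 (-2.87), MCM6 (-2.92), PCNA (-3.41) and CDK1 (-2.80). Control 17 lay far above the other controls in CCND3 (1.22) and far below them in MCM5 (2.26), MCM7 (1.64) and MAD2L1 (0.77).

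In the other animals, CCNE1 was low in control 23 (-7.99), where its probe was not well above background, CENPA was high in control 22 (-1.56), and MAD2L1 was high in prednisolone 31 (2.14), the 1 treated animal within the range of controls 18 to 24.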

How the results depend on the processing

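Under every alternative run, 0 of the 35 genes, 0 of the other cell division genes and 0 of all genes passed the threshold with limma. The median difference of the 35 genes was -0.07 and lay between -0.16 and -0.02 when 1 animal was left out in turn. It was -0.13 with quantile normalization, -0.02 in the deposited table and -0.01 with scan day as a block. It moved to 0.13 within slide 1 and to -0.39 within slide 4, which held 4 and 3 animals. Quantile normalization and median scaling moved the median of all genes from 0.01 to -0.07 and -0.05. The sign of the difference turned for 5 of the 35 genes with quantile normalization, 8 with normexp background, 9 with array weights, 5 in the deposited table, 5 with scan day as a block and 6 without control 17 and prednisolone 30; none of these differences had passed the threshold. No paired analysis was possible because the groups share no animal numbers.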
